A study of Mus musculus with 8 samples.

Results

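The genes described here are the 4 adult haemoglobin genes Hba-a1, Hba-a2, Hbb-bs and Hbb-bt, the red cell haem enzyme gene Alas2 and the myoglobin gene Mb. They were listed by name, as 5 genes of blood origin to be set against 1 gene of the muscle fibre, and are 6 of the 55487 genes in the deposited table. The genes were selected on their normalized counts in these same 8 libraries, where the blood genes had varied widely between mice, so levels, spread and relations among the 6 genes are given as a description and were not tested. The samples were skeletal muscle RNA of 8 male C57BL/6J mice, aged 10 weeks when the experiment began. Casts were kept on both hindlimbs for 8 days. Over the same days each mouse received K14Q MOTS-c at 15 mg/kg per day, split over 2 intraperitoneal injections. MOTS-c is a small peptide encoded in mitochondrial DNA, and K14Q is a naturally occurring variant of it with a changed amino acid. All 8 libraries share the casting and the peptide, so no difference between treatments could be tested, and the uncast, cast-only and wild-type MOTS-c libraries of the study were not analysed here. The sample labels name the vastus lateralis as the muscle, whereas the design text and the study's methods name the gastrocnemius, and the files hold nothing that settles it. The fast myosin gene Myh4 had 839797 to 2063670 normalized counts, and the slow myosin gene Myh7 3909.8 to 9437.

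Haemoglobin carries oxygen in red cells and is built from alpha and beta globin chains, each holding a haem group. Mature mammalian red cells have no nucleus, and the globin RNA of circulating blood sits mostly in reticulocytes, young red cells that have recently left the marrow. Alas2 encodes the erythroid form of 5-aminolevulinate synthase, the enzyme that starts haem synthesis in developing red cells, while Alas1 encodes the form used by other tissues. Myoglobin is the oxygen-binding haem protein inside muscle fibres and is most abundant in slow and oxidative fibres. In whole muscle RNA, fewer cells of a type and less RNA per cell cannot be told apart, and the amount of blood left in each piece of muscle was not measured.

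The adult globin genes come in near-identical pairs, and the bases that tell the copies apart are shown because they decide how far a read can be assigned to 1 copy. Hba-a1 and Hba-a2 lie in 1 gene cluster on chromosome 11 (GRCm38, GENCODE M21, 32283511 to 32284465 and 32296489 to 32297298, plus strand). Their coding sequences of 426 bases were 99.77% identical and differed only by C381T, read as the Hba-a1 base, the position counted from 1 at the start codon, and the Hba-a2 base. The stretches around that base, in capitals, were as follows.
Hba-a1: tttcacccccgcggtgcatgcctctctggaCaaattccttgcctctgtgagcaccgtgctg
Hba-a2: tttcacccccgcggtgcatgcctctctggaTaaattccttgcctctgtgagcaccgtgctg
Hbb-bs and Hbb-bt lie on chromosome 7 (103826534 to 103828096 and 103812524 to 103813996, minus strand) and are the pair of adult beta genes of the haplotype that C57BL/6J mice carry. Their coding sequences of 441 bases differed only by C417T, read from Hbb-bs to Hbb-bt.
Hbb-bs: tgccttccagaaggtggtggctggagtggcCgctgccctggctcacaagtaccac
Hbb-bt: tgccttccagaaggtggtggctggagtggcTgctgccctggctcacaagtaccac
Of all runs of 50 bases in the longest Hba-a1 transcript, 67.5% also occurred in an Hba-a2 transcript, and 65.8% of those in the Hbb-bs transcript occurred in Hbb-bt. No such run was shared between Hba-a1 and Hbb-bs, or between Mb and either. How reads that match both copies were counted is not given in the sources used here, so the split between copies is uncertain, while alpha, beta and myoglobin reads could not be confused over runs of that length.

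The sequences just upstream of the genes are shown because 5 of the genes are transcribed in red cell precursors and 1 in fibres. The windows searched were the 250 bases before the RefSeq start (GRCm38.p6), and the letters printed are those that lie before any annotated exon of the gene. Both strands were searched, and matches are in capitals. For the GATA family of factors, which includes the erythroid factor GATA1, the letters searched were GATAAG and also AGATAA, which overlap each other in Hbb-bs. For the box bound by KLF1 and related factors the letters were CCACCC. The general promoter elements searched were the CCAAT box and the TATA box, the latter as TATAA. The A/T-rich element of muscle promoters was searched as AAAATAG.
Hba-a2, chr11:32296242-32296488, plus strand: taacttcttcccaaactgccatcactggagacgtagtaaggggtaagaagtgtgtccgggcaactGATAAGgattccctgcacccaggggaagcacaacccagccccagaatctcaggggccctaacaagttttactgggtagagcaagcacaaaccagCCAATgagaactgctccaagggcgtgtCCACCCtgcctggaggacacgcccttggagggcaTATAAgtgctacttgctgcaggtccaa
Hbb-bs, chr7:103828097-103828178, minus strand: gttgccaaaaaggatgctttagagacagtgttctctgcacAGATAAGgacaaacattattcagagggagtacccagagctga
Hbb-bt, chr7:103813997-103814173, minus strand: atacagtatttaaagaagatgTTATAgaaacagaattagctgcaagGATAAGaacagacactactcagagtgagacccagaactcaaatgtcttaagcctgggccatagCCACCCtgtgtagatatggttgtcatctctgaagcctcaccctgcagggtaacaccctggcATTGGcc
Alas2, chrX:150547167-150547374, plus strand: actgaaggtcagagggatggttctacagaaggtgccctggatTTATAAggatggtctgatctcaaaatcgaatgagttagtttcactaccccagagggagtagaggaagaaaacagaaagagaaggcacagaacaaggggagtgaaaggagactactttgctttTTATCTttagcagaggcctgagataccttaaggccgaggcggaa
Mb, chr15:77022788-77022977, minus strand: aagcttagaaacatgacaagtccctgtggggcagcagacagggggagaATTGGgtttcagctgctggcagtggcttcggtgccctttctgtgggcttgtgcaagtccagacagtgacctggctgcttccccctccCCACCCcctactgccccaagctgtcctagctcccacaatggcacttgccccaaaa
GATAAG occurred in the windows of all 4 globin genes and in 6.55% of 32851 windows of the same length before RefSeq starts. AGATAA occurred before Hbb-bs and, on the opposite strand, before Alas2, against 9.99% of all windows. AAAATAG occurred before Mb alone among the 6 genes, and in 3.89% of all windows. The letters CCACCC (28.1% of all windows) were found before each gene but Hbb-bs. CCAAT (33.8%) was found before each gene but Alas2, and TATAA (22.8%) before each but Mb. Counted from the RefSeq start, each globin gene had TATAA between -30 and -23 and CCAAT between -91 and -71. Alas2 had TATAA only between -208 and -203, and Mb had CCAAT only at -202 to -198 on the opposite strand. Only exact letters were searched, so other forms of these boxes were not looked for. Some matches reach into the part of the window that overlaps an annotated exon and are not marked. AAAATAG before Mb is one of them, and only its first 4 letters are printed. For Mb the window used the RefSeq start nearest the coding start, 1 of 3. The 250 bases before Hba-a1 and Hba-a2 shared an unbroken run of 247 bases, whereas the longest run shared before Hbb-bs and Hbb-bt was 14 bases.

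All 6 genes reached a minimum of 10 counts per library, a limit that 15135 genes of the table met. Library totals were 23985356 to 33012497 counts, and the values below are normalized counts, in which each library is divided by the authors' size factor (0.906 to 1.20).

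The alpha globins were the most abundant globin genes by mean count. In mouse 4, however, Hbb-bs (2755) exceeded both, and in mouse 3 Hbb-bs (6796) exceeded Hba-a2 (6675). Hba-a1 had 2349.5 normalized counts in mouse 1, 4094 in mouse 2, 7070.2 in mouse 3, 2634 in mouse 4, 8298 in mouse 5, 3055 in mouse 6, 3415 in mouse 7 and 2111 in mouse 8. Its mean was 4128 ± 2304 (SD, n = 8). The values of mice 3 and 5 were far above the others, of which mouse 2 was the highest. Hba-a2 followed the same order of mice, from 1990.1 in mouse 8 through a median of 3079 to 7959 in mouse 5, with a mean of 3921 ± 2208 (SD, n = 8).

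The beta globins separated the same pair of mice from the rest. Hbb-bs had 2035 normalized counts in mouse 1, 3305 in mouse 2, 6796 in mouse 3, 2755 in mouse 4, 7373 in mouse 5, 2554 in mouse 6, 2636 in mouse 7 and 1861 in mouse 8, with a mean of 3664 ± 2162 (SD, n = 8). Mice 3 and 5 had at least 6796, and no other mouse exceeded 3305. Hbb-bt ran from 1038 in mouse 8 through a median of 1593 to 4389.95 in mouse 5, with a mean of 2134 ± 1280 (SD, n = 8).

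Alas2 (chromosome X, 150547375 to 150570638, plus strand) was expressed far below the globins. It had 69.0 normalized counts in mouse 1, 103 in mouse 2, 258 in mouse 3, 129.7 in mouse 4, 299 in mouse 5, 107 in mouse 6, 65.1 in mouse 7 and 60.2 in mouse 8, a mean of 136 ± 91.5 (SD, n = 8). Again these 2 mice, 3 and 5, were the highest, and mouse 4 came next in place of mouse 2. These values rest on 55 to 326 counts.

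Mb (chromosome 15, 77015487 to 77050670, minus strand) was the 98th most abundant gene of the table and showed another order of mice. It had 31348 normalized counts in mouse 1, 21941 in mouse 2, 22551 in mouse 3, 23077 in mouse 4, 30334 in mouse 5, 27049.9 in mouse 6, 28359 in mouse 7 and 33481 in mouse 8. The mean was 27268 ± 4376 (SD, n = 8). The mice with the highest globin levels were not alike in myoglobin, mouse 5 being the third highest and mouse 3 the second lowest. Mb overlaps Apol6 (171 to 415 counts) and Gm49540 (16 to 42 counts), both on the opposite strand. Strand use in the counting is not given in the sources used here. Whether the overlap affected the 20300 to 33078 counts of Mb was not tested.

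**Figure D1:**
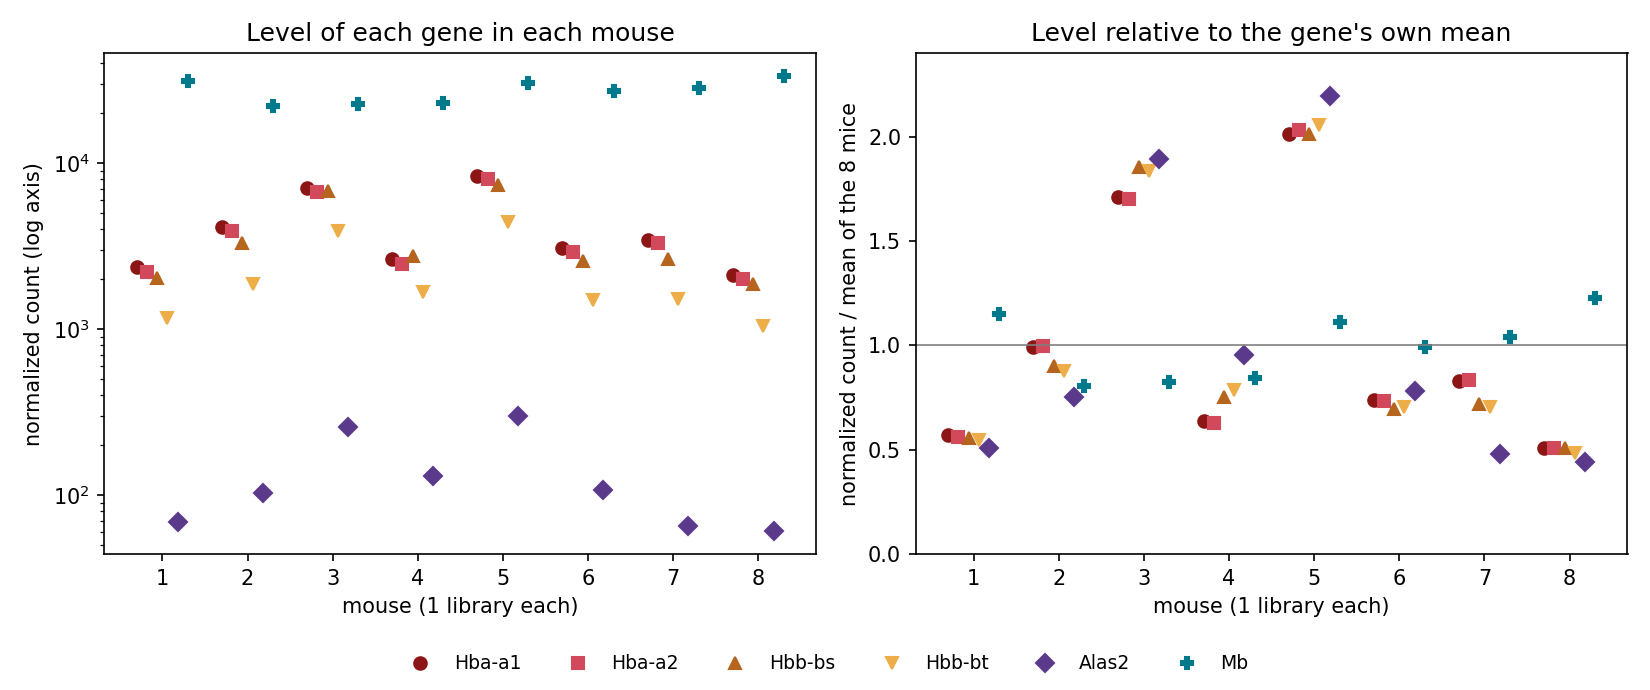
Normalized counts of the 6 genes in each of the 8 mice on a log axis (left) and divided by the gene's own mean over the 8 mice (right); each point is 1 library and carries no error bar. The 5 blood genes all have their highest values in mice 3 and 5, up to 2.19 times their mean for Alas2 in mouse 5, while Mb stays between 0.805 and 1.23 times its mean.

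The blood genes spread widely between mice and myoglobin did not. The highest value exceeded the lowest 3.93-fold for Hba-a1, 3.999-fold for Hba-a2, 3.96-fold for Hbb-bs, 4.23-fold for Hbb-bt and 4.97-fold for Alas2, against 1.53-fold for Mb. The coefficient of variation (SD over mean) was 55.8% for Hba-a1, 56.3% for Hba-a2, 59.0% for Hbb-bs, 59.98% for Hbb-bt, 67.2% for Alas2 and 16.0% for Mb. The median over the 15135 genes was 15.6%. Thus 5 of the 6 genes reached 50%, as did 181 of the 15135 genes (1.2%). Without mouse 5 alone, Hba-a1 and Hba-a2 fell to 48.1% each, leaving 3 genes at 50% or more. This spread was among the reasons for listing the genes and is printed beside the background as a description only. Without mice 3 and 5 the coefficients of the blood genes were 25.0%, 25.7%, 20.6%, 21.4% and 31.6% in the same order, and those 6 mice still differed, with Hbb-bs at 1861 to 3305. Among the 127 genes within 2-fold of its mean level, Mb stood at percentile 44.1 of the coefficient of variation.

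**Figure D2:**
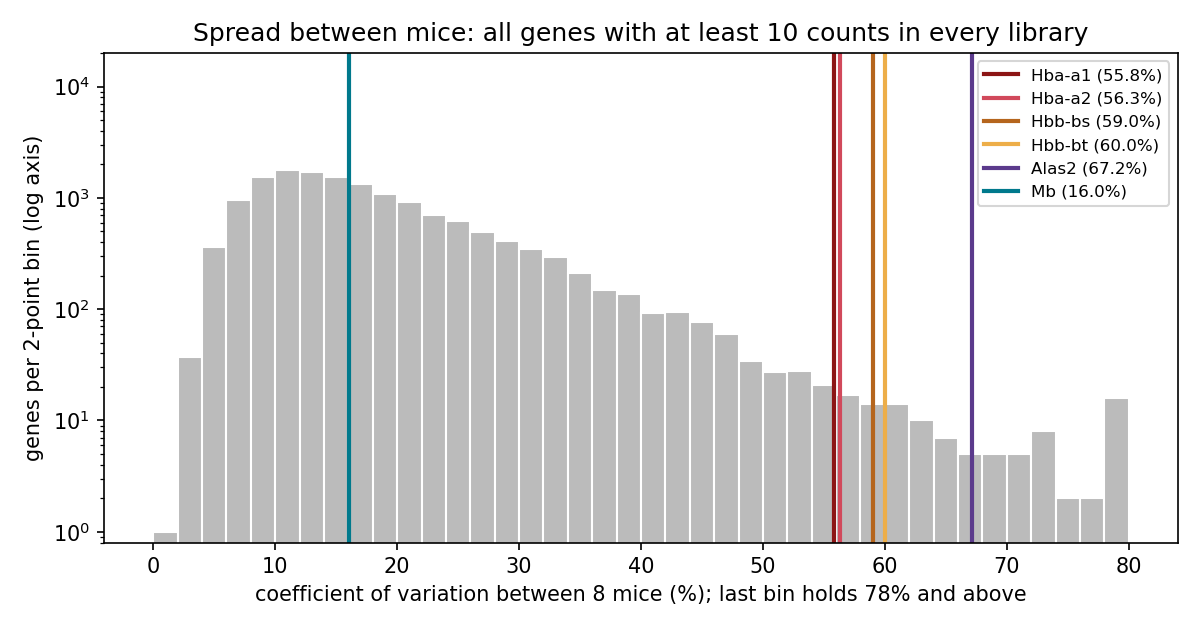
Coefficient of variation between the 8 mice (x axis, percent) for the 15135 genes that reached 10 counts in each library, as the number of genes per bin on a log axis, with the 6 genes as coloured lines. The 5 blood genes lie in the far right tail, between 55.8% and 67.2%, and Mb at 16.0% lies near the median of 15.6%.

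Levels of different genes were compared per kilobase of exon sequence. On this scale Mb came first with 18276 ± 2933 normalized counts per kilobase (SD, n = 8), followed by Hba-a2 with 5878 ± 3311, Hba-a1 with 5084 ± 2838, Hbb-bs with 4771 ± 2815, Hbb-bt with 3035 ± 1820 and Alas2 with 56.7 ± 38.1. Mb lay 3.47-fold above Hba-a2 by geometric mean, and the ranges of the pair did not overlap. Hbb-bt lay 55.7-fold above Alas2, again without overlap. The globins overlapped each other in range, although within a mouse Hba-a2 exceeded Hba-a1 and Hbb-bs exceeded Hbb-bt in 8 of 8 mice, while Hba-a1 exceeded Hbb-bs in 6 of 8. The order of the alpha pair depends on the exon lengths used (812 and 667 bases), since by count alone Hba-a1 was the higher in each mouse.

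Summed over the 4 genes, globins took 0.0233% to 0.0961% of all counts and Mb took 0.0698% to 0.112%. The ratio of Mb to the summed globin counts was 4.04 in mouse 1, 1.67 in mouse 2, 0.922 in mouse 3, 2.42 in mouse 4, 1.08 in mouse 5, 2.71 in mouse 6, 2.62 in mouse 7 and 4.78 in mouse 8. Mouse 3 was the only mouse in which the summed globin counts exceeded those of Mb.

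The proportions within the blood genes were far steadier than their levels. Hba-a1 over Hba-a2 was 1.04 to 1.07, a coefficient of variation of 0.847%. Hbb-bs over Hbb-bt was 1.64 to 1.79, a coefficient of variation of 2.86%. Reads assigned to either copy alike would also give a steady ratio within a pair, and this was not tested. The ratio of alpha to beta counts does not share reads between its terms. It was lowest in mouse 4 at 1.15 and highest in mouse 7 at 1.61, with a mean of 1.41 ± 0.145 (SD, n = 8), a coefficient of variation of 10.3%. Mice 3 and 5, which had the most globin RNA, were at 1.28 and 1.38, inside the range of the others.

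Alas2 tracked the globins less closely than the globins tracked each other. Counting alone would give a coefficient of variation of 8.39% for Alas2 at its mean count, against 1.53% to 2.13% for the globins. How much of the looser tracking comes from counting was not tested. Per 1000 globin counts there were 9.60 ± 2.29 Alas2 counts (SD, n = 8). The lowest value was 6.01 in mouse 7 and the highest 13.6 in mouse 4, the same mice that gave the highest and the lowest alpha to beta ratio. Mice 3 and 5 had 10.5 and 10.7, close to the mean, so the mice that stood apart in globin level did not stand apart in this ratio.

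**Figure D3:**
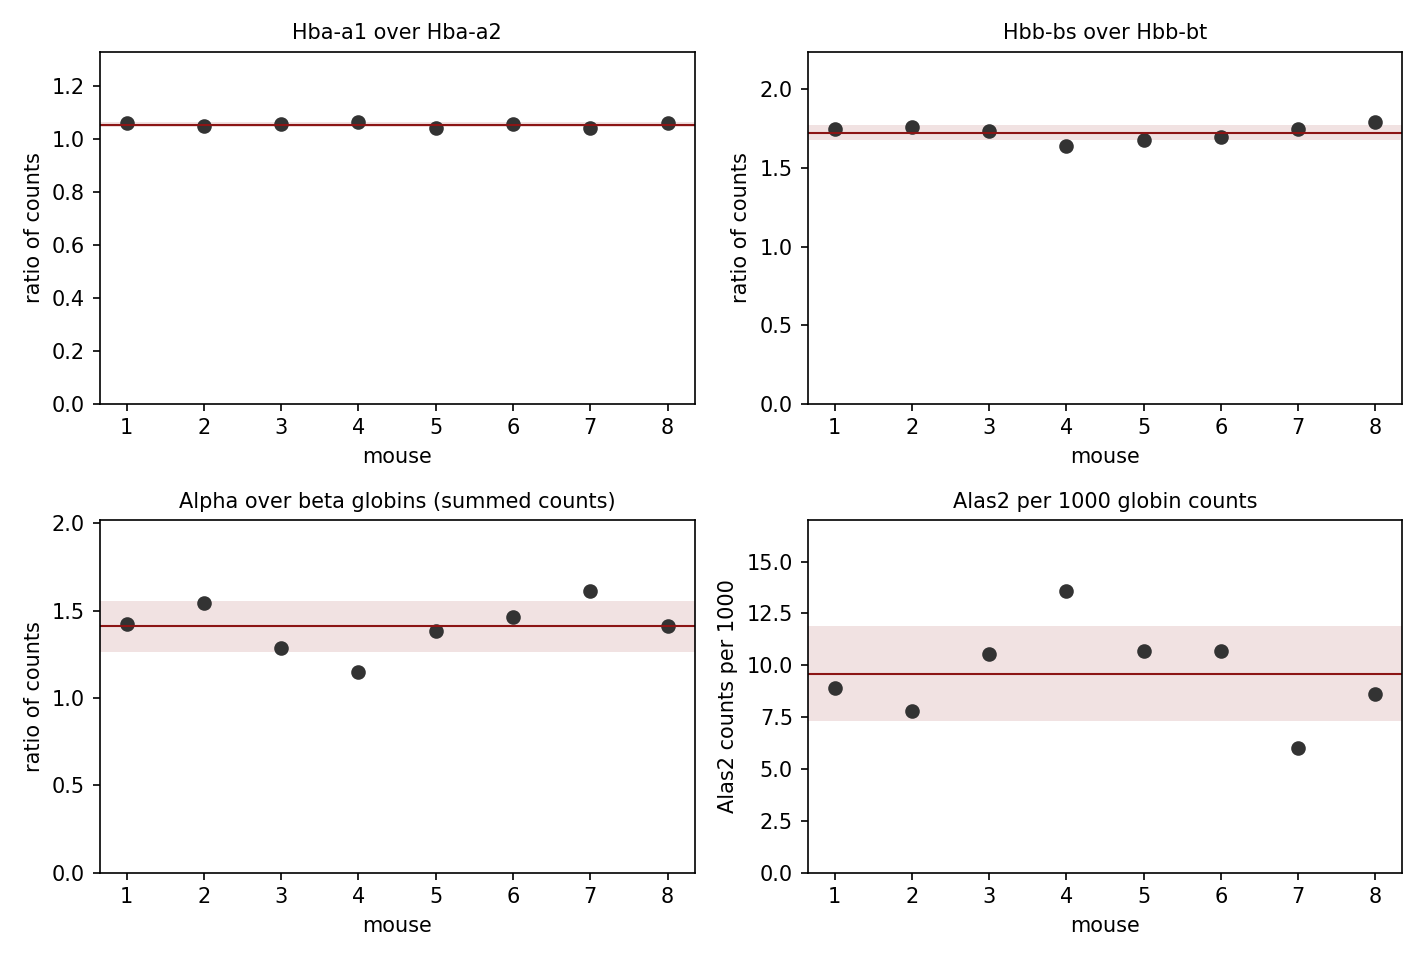
Ratios among the blood genes in each of the 8 mice, with the mean (line) and 1 SD on either side (band), each axis starting at 0. The ratios within the alpha pair (1.04 to 1.07) and the beta pair (1.64 to 1.79) are nearly flat, while Alas2 per 1000 globin counts runs from 6.01 in mouse 7 to 13.6 in mouse 4.

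Because mice 3 and 5 stood apart in each blood gene, a correlation over all 8 mice mostly describes the gap between them and the rest, and the value within the other 6 mice is given with it. All correlations were on log2(normalized count + 1). Hba-a1 and Hbb-bs had a Pearson's r of 0.98 over 8 mice and 0.91 within the 6. Hbb-bs and Alas2 had 0.95 over 8 mice and 0.69 within the 6. For Hba-a1 and Alas2 the coefficient fell from 0.89 over 8 mice to 0.38 within the 6, so that relation rests largely on mice 3 and 5. Hbb-bs and Mb had an r of -0.37 over 8 mice and -0.94 within the 6, where the mice with the least Mb, mice 2 and 4, had the most Hbb-bs. Mouse 5, with high values of both, departs from that order, and r was -0.76 without it, but -0.15 without mouse 3. For Alas2 and Mb, r was -0.39 over 8 mice, -0.85 within the 6, and between -0.79 and -0.20 with any 1 mouse left out. The relations to Mb were weaker when libraries were scaled by their totals, with r of -0.15 over 8 mice and -0.81 within the 6 for Hbb-bs, and -0.08 and -0.44 for Alas2. Hbb-bs, Alas2 and Mb are counted in the same libraries and share their size factors.

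**Figure D4:**
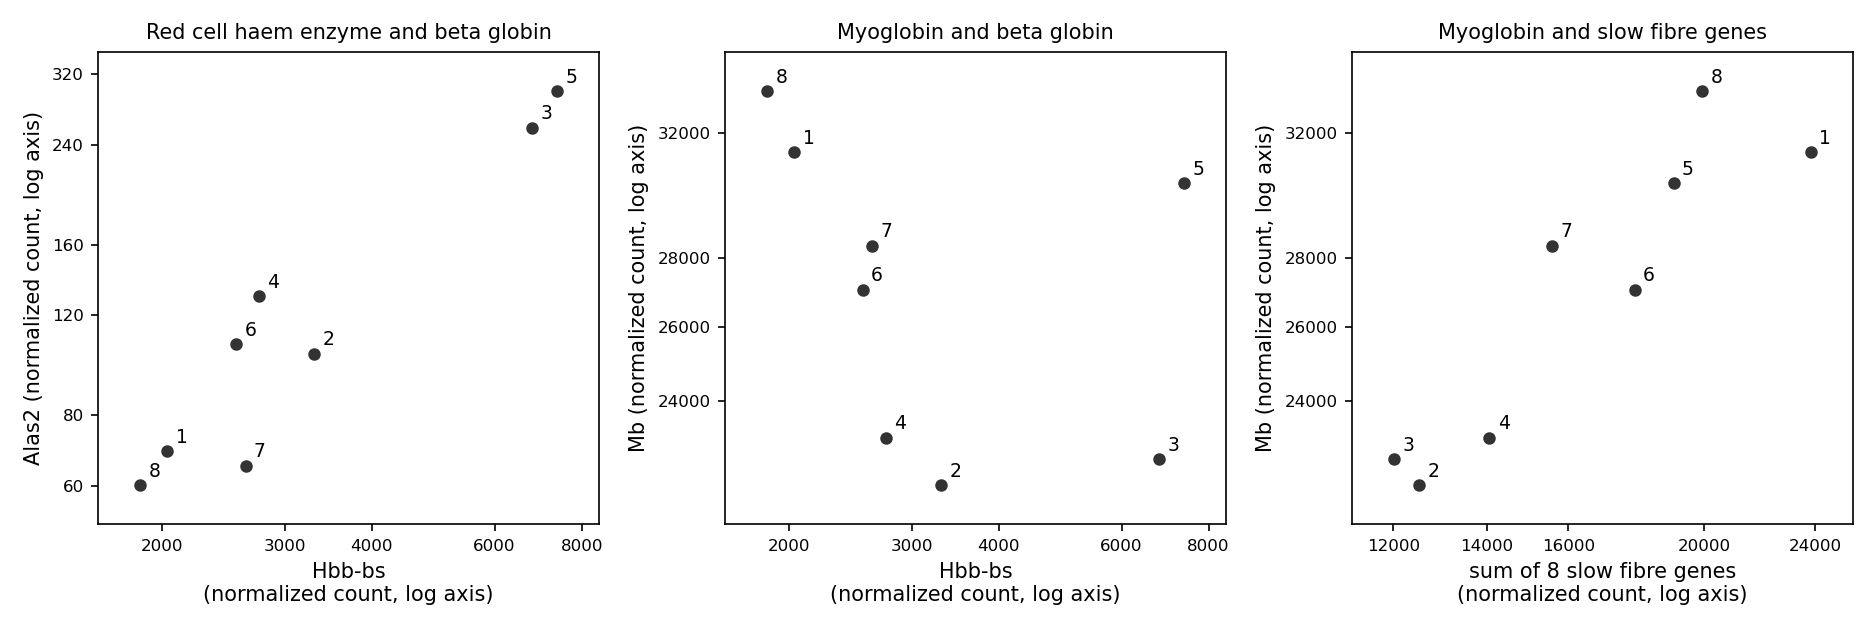
Normalized counts on log axes, 1 point per library, numbered by mouse: Alas2 against Hbb-bs (left), Mb against Hbb-bs (middle) and Mb against the sum of 8 slow fibre genes (right). Mice 3 and 5 sit apart on the Hbb-bs axis in the first 2 panels, at 6796 and 7373, and in the third the 3 mice with the least Mb are also those with the lowest slow fibre sums.

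The other globins, of embryonic red cells and of other tissues, were looked up next. Of 10 further globin names, 8 had a row in the table, and Hbb-b1 and Hbb-b2, the adult beta genes of another haplotype, were not matched. The embryonic genes Hbb-y and Hbb-bh2 had 0 counts in all 8 libraries, where 3 counts would correspond to 2.49 to 3.31 normalized counts. Hba-x, Hbb-bh1, Hbq1a and Hbq1b had at most 2 counts in any library, and so did neuroglobin (Ngb). Cytoglobin (Cygb), a globin of fibroblasts and other connective tissue cells, had 258 to 485 normalized counts with a coefficient of variation of 20.1%. It did not single out mice 3 and 5, which had 355 and 391.

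The remaining genes of haem synthesis varied less between mice than Alas2. All 8 of them passed 10 counts in every library, with coefficients of variation of 5.71% to 17.8% and a median of 12.2%. Their summed level ran from 7068 to 7876 normalized counts. Alas1 had 1262 to 1671 normalized counts, and Fech, which inserts iron into the ring as the last step, had 3679.7 to 4353. No gene of this list reached a coefficient of variation of 50%. In mice 3 and 5 the summed level was 7068 and 7761, spanning most of the range of all mice. For this sum r was -0.10 with Hbb-bs and -0.25 with Alas2 by the size factors, but 0.64 and 0.75 by library totals, a scaling that also raised the median slope of all genes with Hbb-bs, from 0.01 to 0.10, so no direction is read for this list. With the mean z-score of the list in place of its sum, r was -0.59 with Hbb-bs and -0.77 with Alas2, so the value also depended on how the list was summarised.

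Genes for haem and iron transport in mitochondria had a summed level of 4999.8 to 5762 over 8 genes, with a median coefficient of variation of 13.96%. Slc25a37 (mitoferrin 1), the iron importer that red cell precursors depend on, had 532 to 908 normalized counts, with its lowest value in mouse 5. Haem breakdown and scavenging genes summed to 2518 to 4868 over 6 genes. Hmox1, which opens the haem ring, had 235 to 386 normalized counts, and Cd163, the macrophage receptor for haemoglobin bound to haptoglobin, 252 to 854. For both Cd163 (588 and 583) and Hmox1 (327 and 237), mice 3 and 5 lay inside the range of the others.

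Red cell genes other than globins were close to the detection limit. Of 13 listed, 12 had a row and only Car1, a carbonic anhydrase, reached 10 counts in each library. The summed level ran from 53.0 to 126 normalized counts. Slc4a1, the anion exchanger of the red cell membrane (band 3), had 17.4 normalized counts in mouse 3 and 26.6 in mouse 5, against 5.87 to 10.6 in the others. These values of Slc4a1, which was named after they were seen, rest on 29 counts or fewer. Car1 did not separate the same mice, with 70.6 normalized counts in mouse 5 but 46.5 in mouse 3, against 36.4 to 57.3 in the others. Rhag and Rhd, of the Rh complex of the red cell membrane, had 0 counts in mice 3 and 5 and at most 2 in any library. The erythroid transcription factor genes Klf1 and Gata1 had at most 2 counts in any library, and Cldn13, a gene of red cell precursors, had none.

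Markers of other blood cells were compared as lists. Platelet genes summed to 82.8 to 162 normalized counts. Ppbp (a platelet chemokine) was highest in mouse 5 at 23.8 and next in mouse 3 at 9.97, on 3 to 26 counts. Pf4 (platelet factor 4) was highest in mouse 2 at 104. Of the 8 platelet genes only 2, Pf4 and Gp1bb, reached 10 counts in every library. Gp1bb did not single out mice 3 and 5, which had 18.3 and 14.7, against 13.7 to 19.8 in the others. Neutrophil genes summed to 52.8 to 89.1 in 7 mice and to 4.42 in mouse 7, and no neutrophil gene reached 10 counts in every library. Lymphocyte genes summed to at most 8.65. Endothelial genes summed to 4153 to 5928 and macrophage genes to 1146 to 2696, with mice 3 and 5 inside the range of the others in both.

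To ask which measures outside the list went with the blood genes and with myoglobin, Hbb-bs, Alas2 and Mb were each correlated with 13 measures, giving 39 relations, with a two-sided exact permutation test over all 40320 pairings and Benjamini-Hochberg adjustment. No relation had an adjusted p below 0.05. Hbb-bs and the summed red cell genes had r = 0.88 (exact p = 0.0071, adjusted 0.093) and Spearman's rho = 0.79 (exact p = 0.028, adjusted 0.22). Within the 6 mice that r was 0.35, so the relation rests on mice 3 and 5. Alas2 and the red cell genes had r = 0.89 (exact p = 0.0038, adjusted 0.075) with rho = 0.76 (exact p = 0.037, adjusted 0.24), and r = 0.51 within the 6. Car1 made up most of the red cell sum, with 36.4 of 53.0 normalized counts in mouse 7 and 70.6 of 126 in mouse 5. By itself Car1 had r = 0.62 with Hbb-bs and 0.63 with Alas2.

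Platelet genes and Alas2 had r = 0.85 (exact p = 0.0098, adjusted 0.096) and rho = 0.83 (exact p = 0.015, adjusted 0.20), and r was 0.88 within the 6 mice and 0.83 without the 2 mice farthest from the median of the platelet sum. With Hbb-bs they had r = 0.72 (exact p = 0.044, adjusted 0.31) and rho = 0.83 (exact p = 0.015, adjusted 0.20). That r was 0.59 within the 6 mice and 0.82 without the 2 farthest. Pf4, the most abundant gene of the platelet sum (mean 76.1), had r = 0.51 with Hbb-bs and 0.60 with Alas2. Gp1bb, the other platelet gene with 10 counts in every library, had -0.20 and -0.13. Macrophage genes and Alas2 had r = 0.58 (exact p = 0.11, adjusted 0.43) and rho = 0.79 (exact p = 0.028, adjusted 0.22), with r = 0.88 within the 6 mice and 0.09 without the 2 farthest. The share of counts in mitochondrially encoded genes had r = -0.62 with Alas2 (exact p = 0.10, adjusted 0.43) and rho = -0.74 (exact p = 0.046, adjusted 0.26), and r = -0.63 within the 6 mice and -0.69 without the 2 farthest. The share in the 10 most abundant genes had r = -0.69 with Alas2 (exact p = 0.058, adjusted 0.32) and rho = -0.62 (exact p = 0.11, adjusted 0.41), and r = -0.58 within the 6 mice and -0.61 without the 2 farthest.

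The number of relations called depends on how a list is summarised. With the mean z-score over a list's genes in place of summed counts, which gives genes with few counts the same weight as abundant ones, 5 of the 39 relations had an adjusted p below 0.05. These were Hbb-bs and Alas2 with red cell genes (r = 0.98 and 0.94), Hbb-bs and Alas2 with platelets (r = 0.89 and 0.96), and Mb with slow fibre genes (r = 0.92).

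The highest coefficient of myoglobin was with slow fibre genes. The slow fibre sum, of 8 genes for slow myosins, troponins and calcium handling, ran from 12015 to 23839 normalized counts. Its relation to Mb had r = 0.91 (exact p = 0.0028, adjusted 0.075) and rho = 0.93 (exact p = 0.0022, adjusted 0.087). Without the 2 mice farthest from the median of the slow fibre sum, r was 0.93, and it stayed between 0.89 and 0.94 with any 1 mouse left out. The fast fibre sum, which ran from 1752700 in mouse 3 to 3632600 in mouse 1, had r = 0.54 with Mb (exact p = 0.18, adjusted 0.50) and rho = 0.31 (exact p = 0.46, adjusted 0.64), and r = -0.13 without the 2 mice farthest from its median. With any 1 mouse left out, r of Mb with the fast fibre sum ran from 0.36 to 0.86, the highest without mouse 2. With library totals in place of the size factors, r of Mb was 0.03 with the fast fibre sum and 0.86 with the slow fibre sum.

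Between the blood genes and the fibre gene sums the coefficients were negative, and none passed the adjustment. Alas2 and the fast fibre sum had r = -0.72 (exact p = 0.048, adjusted 0.31) and rho = -0.71 (exact p = 0.058, adjusted 0.28), with r = -0.69 within the 6 mice and -0.76 without the 2 farthest. Fast fibre genes take a large share of each library, and their sum was lowest in mouse 3. Hbb-bs and the slow fibre sum had r = -0.44 over 8 mice (exact p = 0.28, adjusted 0.60), rho = -0.62 (exact p = 0.11, adjusted 0.41) and r = -0.91 within the 6. Without the 2 mice farthest from the median of the slow fibre sum, which are 1 and 3, that r was 0.05. Total count had r = 0.53 with Hbb-bs (exact p = 0.18, adjusted 0.50), with rho = 0.45 (exact p = 0.27, adjusted 0.53) and r = -0.13 within the 6 mice, and 0.56 without the 2 farthest. The summed level of 10 genes that respond to low oxygen, of which Pfkfb3 and Bnip3 were the most abundant, gave r of -0.07 with Hbb-bs, 0.11 with Alas2 and -0.03 with Mb, and 0.22, 0.38 and 0.19 when libraries were scaled by their totals. None of these had an adjusted p below 0.05.

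**Figure D5:**
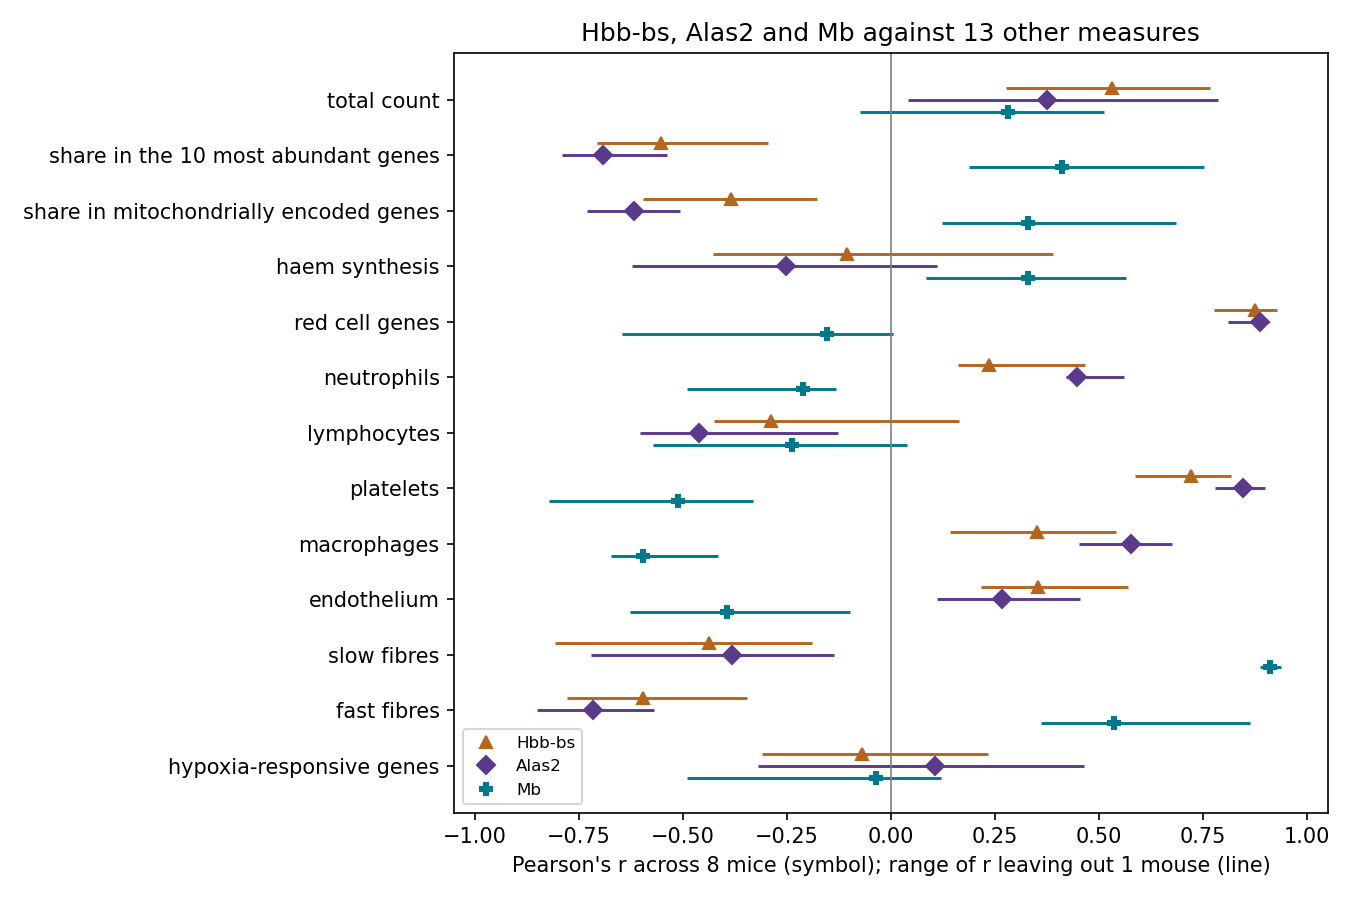
Pearson's r across the 8 mice of Hbb-bs, Alas2 and Mb with each of 13 measures (symbols), with lines from the lowest to the highest r when any 1 mouse is left out. The values for Hbb-bs and Alas2 are highest with red cell genes (0.88 and 0.89), and those for Mb with slow fibre genes (0.91); none of the 39 had an adjusted p below 0.05.

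Each of the 15129 other genes that reached 10 counts in each library was then fitted with limma on log2 Hbb-bs and, separately, on log2 Mb. With Hbb-bs, 0 genes were called in either direction (0%) at an adjusted p of 0.05 by limma, and 0 by edgeR on the recovered counts, although 1117 genes by limma and 1150.0 by edgeR had an unadjusted p below 0.05. The smallest p belonged to Tent5c, which encodes a cytoplasmic poly(A) polymerase, with a slope of 0.73 ± 0.11 (SE) log2 units per log2 unit of Hbb-bs (limma adjusted p = 0.34, edgeR adjusted p = 0.17). Without mouse 4, 19 genes were called, 2 with positive and 17 with negative slopes. Among the 19 were Tent5c (slope 0.74, limma adjusted p = 0.037) and Myoz3, a Z-disc protein of fast fibres (slope -0.91, limma adjusted p = 0.010), the latter chosen after its values were seen.

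With Mb, 0 genes were called (0%) by limma and 0 by edgeR, with 807 and 779 genes at an unadjusted p below 0.05. The smallest p values belonged to Myl3 and Tnnc1, the slow and cardiac forms of a myosin light chain and of troponin C, with slopes of 1.97 ± 0.25 and 2.10 ± 0.27 (SE) and a limma adjusted p of 0.068 for each (edgeR adjusted p = 0.061). A slope near 2 means that these genes differed between mice by about the square of the fold seen for Mb. Tnnc1 was the 1 gene called without mouse 7 (slope 2.17, limma adjusted p = 0.026). All 8 slow fibre genes had positive slopes, 6 of them at an unadjusted p below 0.05, with a median slope of 1.80, beside a median of -0.02 over all genes tested. All 8 fast fibre genes also had positive slopes with Mb, 3 of them at an unadjusted p below 0.05, with a median of 0.90. Under library totals the median slope with Mb was 1.56 for the slow and 0.31 for the fast fibre genes, and 7 of the 8 fast fibre genes remained positive. With Hbb-bs, the same 8 slow and 8 fast fibre genes all had negative slopes, with medians of -0.25 and -0.33, while under library totals 6 slow and 8 fast fibre genes were negative. The haem synthesis list had 2 positive and 6 negative slopes with Hbb-bs and a median of -0.12, beside 7967 positive and 7162 negative slopes and a median of 0.01 over all genes tested. Under library totals the list had 4 positive and 4 negative slopes and a median of -0.02, beside 11657 positive and 3472 negative slopes and a median of 0.10 over all genes tested, so the list and all genes moved together.

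The genes with the most similar pattern were found among 12355 protein-coding genes by Pearson's r of log2 values over the 8 mice. For Hbb-bs these were Tent5c (r = 0.97), Ube2l6 (0.96), Txndc11 (0.93), Crip1 (0.93) and Snx1 (0.93). Tent5c had 145 and 182 normalized counts in mice 3 and 5 against at most 96.2 in the others, and Ube2l6, an enzyme that attaches the ubiquitin-like protein ISG15, 87.2 and 93.5 against at most 65.9. Within the 6 mice r was 0.89 for Tent5c and 0.85 for Ube2l6, but 0.61 for Txndc11 and 0.55 for Snx1. For Alas2 they were Snx1 (0.97), Taf5 (0.96), Cep126 (0.95), Selenoo (0.95) and Ugp2 (0.93), with r between 0.85 and 0.90 within the 6 mice. An r of at least 0.9 was reached by 10 genes with Hbb-bs (0.0809%), 19 with Alas2 (0.154%) and 32 with Mb (0.259%). An r of -0.9 or less was reached by 6 (0.0486%), 36 (0.291%) and 8 genes (0.0648%) in the same order.

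The genes nearest to Mb were Pgp (r = 0.98), Mdh1 (0.97), Bsg (0.97), Myl3 (0.96) and Adipor1 (0.96). Mdh1 encodes cytosolic malate dehydrogenase and had 4441 to 5749 normalized counts. Bsg encodes basigin, the partner that monocarboxylate transporters need at the membrane, and had 5994 to 7719. Adipor1 encodes an adiponectin receptor and had 7689 to 8748. Each of these genes kept an r of at least 0.95 within the 6 mice. Their fold range was narrower than that of Mb, with coefficients of variation of 11.1% for Pgp, 11.8% for Mdh1, 9.10% for Bsg and 5.53% for Adipor1, while Myl3 at 32.5% was wider.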

How the data were processed

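Poly(A) RNA libraries from 8 mice were sequenced by the authors on an Illumina NextSeq. Their processing notes name FastQC, fastp and STAR with GRCm38.p6, the study's methods name summarizeOverlaps for counting per gene, and the annotation release, strand setting and treatment of reads that match several places are not given in the sources used here. The deposited table is described as counts, but its values are count signal divided by a size factor per library. Dividing by the smallest step of each library gave whole reads for 100% of values (within 0.01 of a read). Totals are 23985356 to 33012497 counts. The spread between mice includes technical spread.

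The values were used as deposited, on log2(value + 1) for correlations. Because they are not raw counts, limma 3.58.1 on log2 values was used across genes and edgeR 4.0.16 on the recovered counts as an alternative. Both fits were chosen after seeing the data, and the scripts were tested on simulated data. Relations to 13 measures used an exact permutation test (scipy 1.17.1, Python 3.11.15). Named genes were the 6 genes, genes of the 13 lists, and the 5 protein-coding genes with the highest r with Hbb-bs, Alas2 or Mb. Outside these sets, Myoz3 was named after its values were seen, and Apol6 and Gm49540 because they overlap Mb. The members and lists were chosen with earlier results of these data known. The labels do not say how the 8 samples were handled beyond 1 mouse each, and no pair of libraries agreed within sampling noise. Sequences are from GENCODE M21 and RefSeq (GRCm38.p6), with a promoter window matched for each of the 6 genes. Alternatives were TMM factors, library totals, a pseudocount of 5, Spearman correlation, mean z-scores, no count minimum, and leaving out each mouse.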

Additional observations from a re-analysis of the deposited data

Results flagged for a closer look

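Of 45 values checked for a mouse far from the others, 1 stood out, where chance would give 2.25. The summed neutrophil genes were 4.42 normalized counts in mouse 7 against 52.8 to 89.1 in the other 7 mice, and the gap to the next mouse was 0.572 of the whole range, above Dixon's 95% critical value for 8 samples. S100a9, an abundant neutrophil protein gene, had 0 counts in mouse 7. The same mouse had the fewest Alas2 counts per 1000 globin counts (6.01) and the highest alpha to beta ratio (1.61).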

How the results depend on the processing

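No paired analysis was possible because the libraries belong to 1 condition. Mean levels of the 6 genes moved by less than 1 SD under TMM factors, library totals, the median over mice and each mouse left out. The number of relations with an adjusted p below 0.05 was 0, but 5 with mean z-scores, which weight each gene of a list equally. The median r between globins was 0.98, and 0.93 with Spearman correlation and 0.90 without mice 3 and 5 (chosen after seeing the data). The r of Hbb-bs with Alas2 was 0.95, 0.83 with Spearman correlation and 0.69 without mice 3 and 5, and that of Hbb-bs with Mb was -0.37 and -0.94 without them. With any 1 mouse left out, these coefficients ran from 0.97 to 0.99, 0.91 to 0.97 and -0.76 to -0.15. Genes with a coefficient of variation of at least 50% numbered 181, and 13288 with no count minimum, since genes with few counts are then included. Genes called in the fits over all genes ran from 0 to 19 for Hbb-bs, with 19 without mouse 4, and from 0 to 1 for Mb, with 1 without mouse 7, and the cause was not tested. By library totals, 9 of the 39 coefficients changed sign, among them those of haem synthesis with Hbb-bs, Alas2 and Mb, and none of the 39 had an adjusted p below 0.05 under either scaling. Depth limits the lists of few counts, as the summed lymphocyte genes had 1 to 8 counts per library and the neutrophil genes 4 to 94. The red cell genes had 48 to 137 and the platelet genes 75 to 177.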
